A study of Mus musculus with 6 samples.

Results

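Transcripts of 7 genes that act in skin wound repair were examined in ultraviolet-irradiated mouse skin: the growth factor genes Areg, Pdgfa and Csf1, the receptor gene Flt1, the hypoxia regulator gene Hif1a and the matrix metalloproteinase genes Mmp3 and Mmp9. They were chosen by symbol from a panel of 254 genes, and all 7 were on it. The tissue was back skin, taken at full thickness from SKH-1 mice, a hairless strain with an intact immune system, and there were 3 samples per group. In the UV plus BMS-202 group, the back was treated with 200 µl of BMS-202 at 8 mM. BMS-202 is a small molecule inhibitor of the immune checkpoint ligand PD-L1. The UV group, titled WT-SSL by the submitters, received acetone vehicle by the same route. Both groups had 3 applications (at 24 h and at 1 h ahead of the exposure, and once straight after it), and both received 1 acute dose of solar simulated light of 90 kJ/m2 UVA and 6 kJ/m2 UVB. Skin was harvested 24 h later. The labels give no age. They state 3 mice per group without tying samples to mice, so p-values measure the spread between these samples, which may be technical. Unirradiated skin was not analysed here.

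In skin, keratinocytes release amphiregulin, a ligand of the epidermal growth factor receptor, and platelet-derived growth factor A, which draws in and stimulates fibroblasts. Macrophage colony-stimulating factor, the product of Csf1, maintains macrophages. HIF-1alpha, encoded by Hif1a, is the oxygen-regulated subunit of a transcription factor that switches on glycolytic and angiogenic genes, and Flt1 encodes a receptor of vascular endothelial growth factor. Matrix metalloproteinases 3 and 9 cut components of the extracellular matrix and the basement membrane, and solar ultraviolet light is known to induce such proteases in skin.

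The values deposited for genes are a signal scaled so that Gapdh is 6417.31 in every sample, so each value below is a level relative to Gapdh. The counts behind the values added up to 41537 to 45040 per sample with BMS-202 and 142900 to 160891 with UV. Those of the positive spike-ins were 67957 to 73592 with BMS-202 and 78281 to 90723 with UV. The other 5 housekeeping genes read 2.33-fold (Tubb5) to 10.6-fold (Gusb) lower with BMS-202. The panel carries none of the keratinocyte or fibroblast markers looked for (7 and 5 genes), so the labelled tissue could not be checked on them.

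Relative to Gapdh, all 7 genes read lower in skin given BMS-202, with no overlap between the groups, but Areg, Csf1, Flt1 and Mmp3 turned to higher when values were scaled to all 6 housekeeping genes, and Pdgfa too when Gapdh was left out of these. Hif1a and Mmp9 read lower under all 6 scalings tried. As deposited, Hif1a fell most, 9.59-fold, followed by Mmp9 (8.24-fold), Pdgfa (5.18-fold), Mmp3 (3.81-fold), Areg (2.65-fold), Csf1 (2.604-fold) and Flt1 (1.74-fold). All 7 passed limma's test across the 240 endogenous genes above the floor of 20 in at least 3 samples (Benjamini-Hochberg adjusted p under 0.05), where 55% of the tested genes were called lower and 38.3% higher. Groups did not overlap, with BMS-202 lower, in 56.2% of the tested genes. The median log2 difference (of log2(value + 1), BMS-202 group minus UV group) was -1.93 over the 7 genes and -0.56 over all tested genes. In bulk skin, fewer cells of a type and less RNA per cell cannot be told apart. The part of RNA input, RNA quality and a change of Gapdh itself was not tested either.

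**Figure D1:**
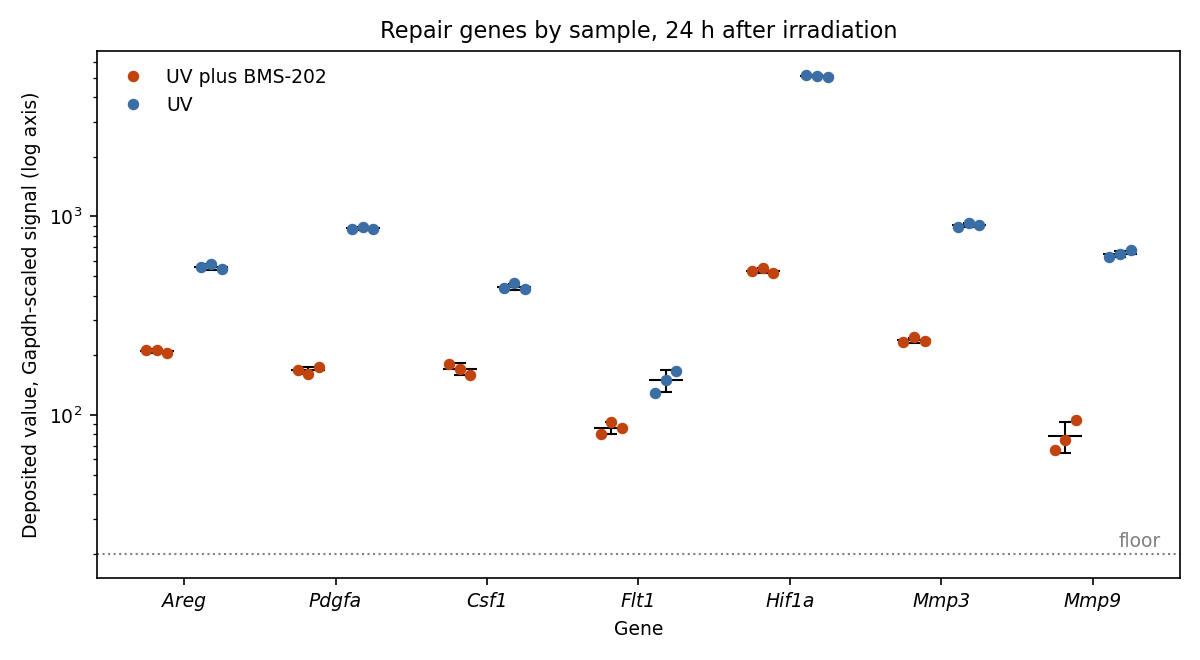
Deposited Gapdh-scaled signal (log axis) of the 7 repair genes in each UV plus BMS-202 sample (left of each pair) and each UV sample (right), with group mean and SD as bars and the floor of 20 as a dotted line. In every gene the 3 UV plus BMS-202 samples lie below the 3 UV samples, with the widest gap in Hif1a and the narrowest in Flt1.

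Areg read 212, 214 and 205 in the UV plus BMS-202 samples, against 555, 574 and 541 in the UV samples. The means were 210.3 ± 4.39 and 557 ± 16.4 (SD, n = 3 each), with a log2 difference of -1.40 ± 0.05 (SE, limma adjusted p = 1.41e-09). The highest UV plus BMS-202 sample stood far below the lowest UV sample, and the replicates of both groups lay close together. Csf1 read 182, 171 and 158 with BMS-202, against 437, 461 and 431 with UV. Its log2 difference was -1.38 ± 0.07 (SE, limma adjusted p = 1.10e-08), and its fall was nearly as large as that of Areg. Pdgfa fell further than these growth factor genes, with 169.6, 161 and 174 in the UV plus BMS-202 samples and 862, 889 and 861 in the UV samples. Its log2 difference was -2.37 ± 0.05 (SE, limma adjusted p = 2.86e-11), which left 19.3% of the UV level.

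Flt1, the receptor gene, had the smallest difference of the 7 as deposited. It read 80.0, 91.9 and 86.3 with BMS-202, against 129.7, 151 and 168 with UV. The lowest UV sample and the highest UV plus BMS-202 sample were only 129.7 and 91.9, yet the groups stayed apart. The means were 86.0 ± 5.96 and 149 ± 19.0 (SD, n = 3 each), and the log2 difference was -0.78 ± 0.11 (SE, limma adjusted p = 5.85e-05). In the UV samples the coefficient of variation of Flt1 was 12.7%, where counting alone gives 7.65%. A chi-square test of those counts gave p = 0.0698, the lowest of 14 such tests (7 genes in 2 groups). So for none of these genes did the 3 samples of a group differ beyond counting noise at 0.05. Among the 7 genes, the coefficient of variation exceeded counting alone only for Flt1 with UV and for Mmp9 in both groups (3.89% against 3.68% with UV). Elsewhere it was below, as with BMS-202 for Areg (2.09% against 7.44%) and Pdgfa (3.81% against 8.31%). Whether the spread behind the p-values holds any difference between mice was not tested.

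Hif1a read 529, 550.1 and 519 in the UV plus BMS-202 samples, against 5175, 5094 and 5058 in the UV samples. The means were 533 ± 15.9 and 5109 ± 59.8 (SD, n = 3 each), so that 10.4% of the UV level was left. Its log2 difference of -3.26 ± 0.04 (SE, limma adjusted p = 6.13e-13) was the 10th lowest of the 240 tested genes as deposited. That place was not fixed: it was 22nd with the negative control mean subtracted, 27th with that mean plus 2 SD subtracted and 55th with quantile normalization. The housekeeping gene Cltc, which encodes the clathrin heavy chain, was lower by about as much (9.77-fold).

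Mmp3, which encodes stromelysin-1, read 232.6, 246 and 235 with BMS-202, against 885, 932 and 901 with UV. The log2 difference was -1.93 ± 0.05 (SE, limma adjusted p = 7.73e-11). Mmp9, which encodes gelatinase B, read 66.6, 75.2 and 93.9 with BMS-202, against 625, 644 and 675 with UV. Its log2 difference was -3.04 ± 0.11 (SE, limma adjusted p = 1.045e-09), the 14th lowest of the tested genes as deposited, and the 19th, 17th and 8th under those same settings in turn. The 3 UV plus BMS-202 samples of Mmp9 were spread widely (coefficient of variation 17.8%, where counting alone gives 12.1%), but all lay far below the UV samples.

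The counts behind these values set how firmly each fold is known. With BMS-202, Mmp9 rested on 55 to 86 counts and Flt1 on 66 to 79, against 674 to 773 and 140 to 192 counts with UV. The mean negative control probe amounted to 27.2% of the Mmp9 count and 24.3% of the Flt1 count with BMS-202, against 1.71% and 7.47% with UV. All 7 genes exceeded the negative control limit (mean + 2 SD) in every sample, Mmp9 by 1.59 to 2.45 times with BMS-202. After the negative control mean was taken off, a step added after the data were seen, the folds became 11.0 for Mmp9, 2.12 for Flt1 and 9.96 for Hif1a, all lower with BMS-202, where 57.1% of tested genes were called lower. Mmp9 then had the lower log2 difference (-3.47) and Hif1a the higher (-3.31), so which of these genes fell more depends on the background.

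Across the panel, genes with a strong probe signal in UV skin tended to read lower with BMS-202 and those with a weak one higher, as the plot of difference against UV level shows. Each repair gene was therefore set beside the 30 other tested genes nearest to it in mean UV signal, which is not corrected for probe efficiency. The UV level is part of the difference itself, so this is a description and carries no test. For Areg, Pdgfa, Csf1, Hif1a, Mmp3 and Mmp9, 30 of 30 such genes were lower, and for Flt1 24 were lower and 6 higher. Being lower thus did not set these genes apart from others at their level. Their place among those neighbours differed. Mmp9 lay 0.99 below its neighbours' median of -2.05 on the log2 scale, and only Il18, a cytokine gene, lay lower (-4.29). Hif1a lay 0.74 below a median of -2.52, with 4 of 30 neighbours lower: H2-Eb1 (-3.84), Tgfb1 (-3.72), Gnas (-3.53) and Cfl1 (-3.43). Few panel genes reach the UV level of Hif1a, and its neighbours spanned mean UV levels of 876 to 9585.

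Areg and Csf1 lay above most genes of their level. Areg was 0.36 above its neighbours' median of -1.76 and Csf1 0.33 above a median of -1.71, each with 26 of 30 neighbours lower than itself. Mmp3 was 0.37 above a median of -2.30, with 20 of 30 lower than itself. Flt1 and Pdgfa sat in the middle, with 16 and 13 of 30 neighbours lower. Flt1 was 0.04 above its neighbours' median. Pdgfa was 0.13 below its own, and with the 20 nearest genes it was 0.06 above.

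**Figure D2:**
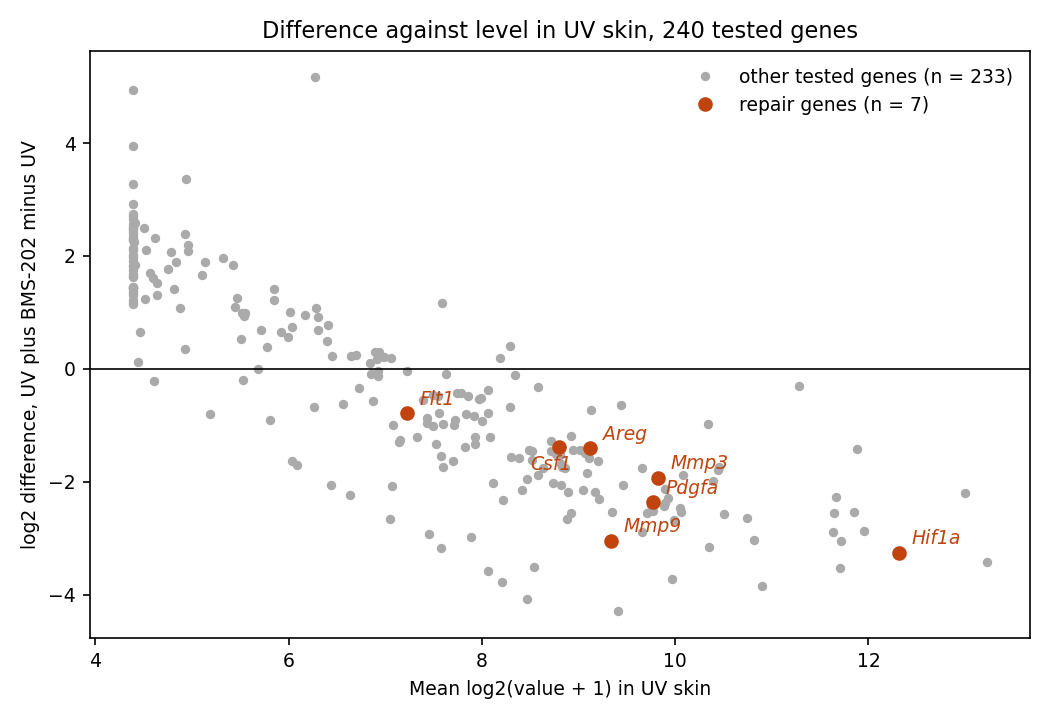
Log2 difference (UV plus BMS-202 minus UV) against the mean log2(value + 1) in UV skin for the 240 tested genes, with the 7 repair genes in colour. Differences run downward as the UV level rises. Mmp9 and Hif1a lie low among genes near their level, and Areg, Csf1 and Mmp3 lie high.

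A ratio of 2 genes within a sample does not depend on a factor that scales the whole sample, such as Gapdh or the spike-ins, but quantile normalization and background subtraction do change it. In 19 of 21 pairs the ratios of the 2 groups did not overlap. Over all 28680 pairs of tested genes 91.4% did not overlap, so the share among these 7 genes is near that of the panel and is not a result about them. Each of these pairs had an exact two-sided permutation p of 0.1, the smallest that 3 against 3 samples allow, and an adjusted p of 0.111 over the 21 pairs, so none could pass 0.05. As deposited, Flt1 over Hif1a changed most: its log2 ratio was -2.63 ± 0.08 with BMS-202 and -5.10 ± 0.20 with UV (SD, n = 3 each). This is a 5.54-fold change of the ratio in favour of Flt1. The order of the pairs depended on the processing. With the negative control mean subtracted, Flt1 over Mmp9 changed more (2.41 on the log2 scale) than Flt1 over Hif1a (2.24). With quantile normalization the change of Flt1 over Hif1a was 0.14 with overlapping groups, and Flt1 over Areg turned to -1.43, against 0.61 as deposited.

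The proteases changed unequally, in the same direction with quantile normalization and both background subtractions. Mmp3 over Mmp9 had a log2 ratio of 1.61 ± 0.26 with BMS-202 and 0.48 ± 0.06 with UV (SD, n = 3 each), a 2.18-fold change in favour of Mmp3. Among the growth factor genes, Areg over Pdgfa had a log2 ratio of 0.32 ± 0.08 with BMS-202 and -0.65 ± 0.02 with UV, a 1.96-fold change in favour of Areg. Csf1 over Areg was -0.31 ± 0.08 with BMS-202 and -0.33 ± 0.01 with UV, with overlapping groups (exact permutation p = 0.8, adjusted p = 0.8 over the 21 pairs). Mmp9 over Hif1a also overlapped, at -2.78 ± 0.28 with BMS-202 and -2.98 ± 0.07 with UV (exact permutation p = 0.3, adjusted p = 0.315).

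**Figure D3:**
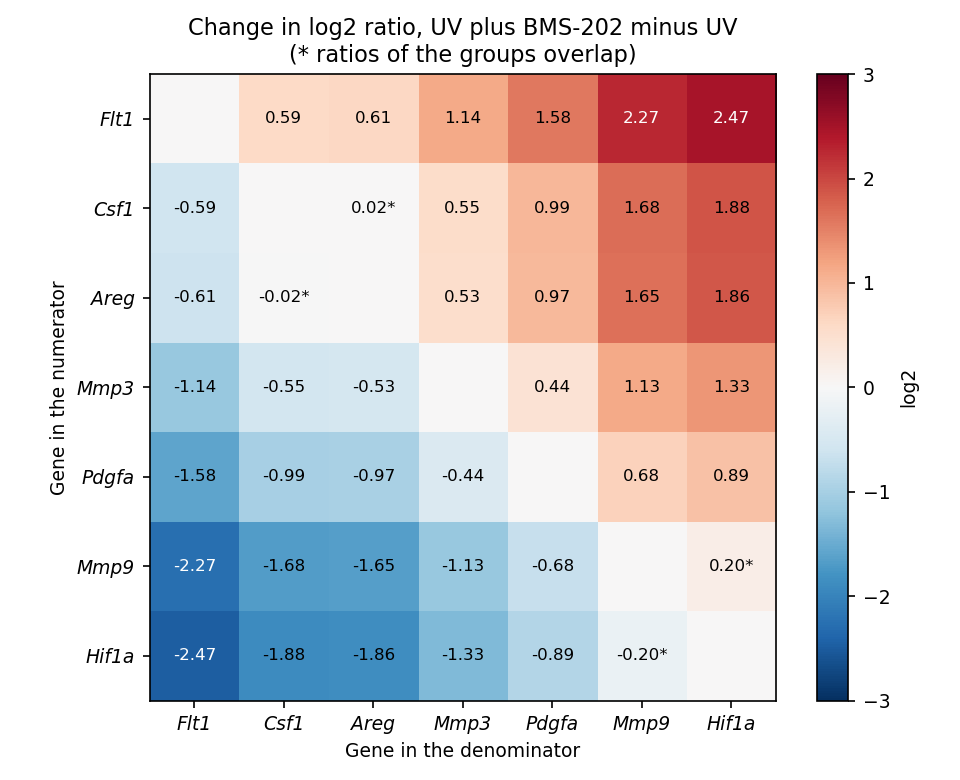
Change in the log2 ratio (deposited values) of the gene in each row over the gene in each column, UV plus BMS-202 minus UV, with an asterisk where the ratios of the 3 samples of each group overlap. From Flt1 at the top to Hif1a at the bottom the genes are ordered by their change, and only Csf1 with Areg and Mmp9 with Hif1a overlap.

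The direction relative to other references was not the same for all 7 genes. Scaling to the positive spike-in controls kept all 7 lower, as did scaling to the panel median, with 59.2% and 50.4% of tested genes called lower. Per spike-in count (the geometric mean of the positive controls), the UV plus BMS-202 level of Hif1a was 0.0799 of that with UV, and those of Mmp9, Pdgfa, Mmp3, Areg, Csf1 and Flt1 were 0.0934, 0.148, 0.201, 0.290, 0.295 and 0.441. Scaling to the 6 housekeeping genes moved the median of all tested genes by 1.91, so that it became 1.35. It left Hif1a (-1.001), Mmp9 (-0.79) and Pdgfa (-0.11) called lower, where 14.2% of tested genes were. The other 4 genes turned to higher, from 0.33 for Mmp3 to 1.46 for Flt1, where 76.7% of tested genes were. Without Gapdh among the housekeeping genes, Hif1a alone was called lower (-0.55, limma adjusted p = 7.14e-05), where 6.25% of tested genes were, and 5 of the 7 were called higher, where 84.2% were. Mmp9 was at -0.34 with a limma adjusted p of 0.0731. Hif1a and Mmp9 had a negative difference under all 6 scalings. With quantile normalization Pdgfa, Flt1, Hif1a and Mmp9 were called lower, where 40% of tested genes were, and Areg was called higher (0.50), where 41.7% were.

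**Figure D4:**
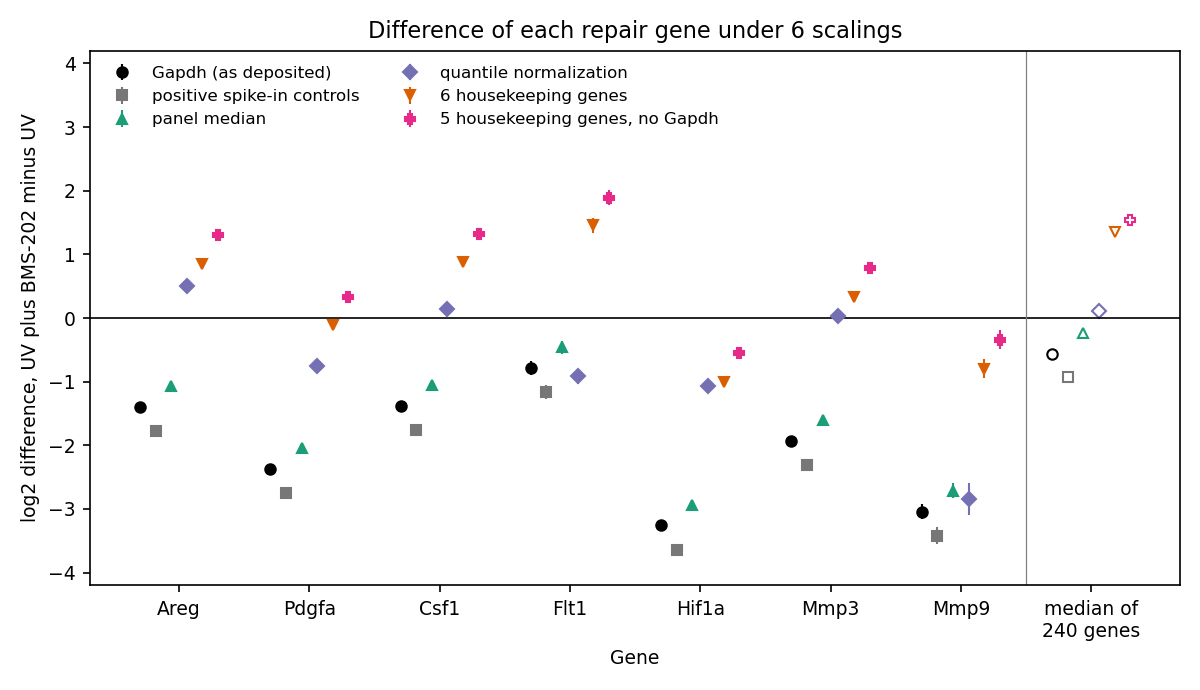
Log2 difference (UV plus BMS-202 minus UV) of each repair gene under 6 scalings, with bars of 1 SE, and the median of the 240 tested genes as open symbols. Hif1a and Mmp9 stay below 0 under all 6, whereas Areg, Csf1, Flt1 and Mmp3 are above 0 under both housekeeping scalings and Pdgfa under the one without Gapdh.

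Promoter sequence was set beside 5 of the genes: Areg and Csf1, which fell alike relative to Gapdh, Flt1, which fell least by that measure, Hif1a, which fell most by it, and the protease gene Mmp3. RefSeq sequence of the 250 bases before the start site (GRCm38.p6) was searched on both strands for the AP-1 site (TGACTCA or TGAGTCA), the cyclic AMP response element (TGACGTCA), the hypoxia response core (ACGTG or GCGTG) and the NF-kB site. Each is printed from 5′ to 3′ on the gene's strand with matches in capitals.
Areg: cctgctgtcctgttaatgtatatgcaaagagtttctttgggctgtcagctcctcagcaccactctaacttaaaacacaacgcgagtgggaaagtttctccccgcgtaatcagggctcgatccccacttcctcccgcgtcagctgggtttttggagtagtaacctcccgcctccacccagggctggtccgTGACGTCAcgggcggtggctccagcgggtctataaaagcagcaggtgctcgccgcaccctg
Csf1: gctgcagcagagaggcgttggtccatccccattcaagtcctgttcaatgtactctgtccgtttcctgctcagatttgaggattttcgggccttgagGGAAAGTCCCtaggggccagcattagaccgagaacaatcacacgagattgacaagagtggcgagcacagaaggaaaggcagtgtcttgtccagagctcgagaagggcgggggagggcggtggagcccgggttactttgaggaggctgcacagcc
Flt1: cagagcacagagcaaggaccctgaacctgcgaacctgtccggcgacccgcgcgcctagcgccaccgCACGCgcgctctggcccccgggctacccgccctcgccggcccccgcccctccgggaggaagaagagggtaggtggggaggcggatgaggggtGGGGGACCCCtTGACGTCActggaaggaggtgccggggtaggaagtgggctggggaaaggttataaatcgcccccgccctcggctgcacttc
Hif1a: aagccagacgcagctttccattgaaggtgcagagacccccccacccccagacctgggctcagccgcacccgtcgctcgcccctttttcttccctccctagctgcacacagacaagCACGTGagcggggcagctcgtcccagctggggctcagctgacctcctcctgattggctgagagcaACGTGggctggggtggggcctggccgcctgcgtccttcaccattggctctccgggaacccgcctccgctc
Mmp3: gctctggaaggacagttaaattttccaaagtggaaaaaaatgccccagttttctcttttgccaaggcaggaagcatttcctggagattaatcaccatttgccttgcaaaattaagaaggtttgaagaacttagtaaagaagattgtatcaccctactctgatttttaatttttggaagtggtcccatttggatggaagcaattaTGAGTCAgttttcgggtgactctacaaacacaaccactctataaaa
These windows are chr5:91139349-91139598 (plus strand) for Areg, chr3:107760470-107760719 (minus strand) for Csf1, chr5:147726012-147726261 (minus strand) for Flt1, chr12:73907617-73907866 (plus strand) for Hif1a and chr9:7445572-7445821 (plus strand) for Mmp3. Areg and Flt1 each hold a cyclic AMP response element, as do 1.55% of all 32851 such windows. Mmp3 holds an AP-1 site at 46 to 40 bases before its annotated start (4.46% of windows). The letters TATAAA, searched too but left in small letters, lie 7 to 2 bases before that start. In Areg and Flt1 they lie 31 to 26 bases before the start (12.4% of windows hold them on either strand). Whether the annotated start of Mmp3 is the one used in this skin was not tested. Csf1 and Flt1 hold an NF-kB match (3.90% of windows), in Flt1 beside the cyclic AMP response element. Hif1a holds the hypoxia core in 2 places, once as CACGTG, which matches on both strands, and Flt1 holds it once (38.6% of windows). Areg and Csf1, which moved by nearly the same amount, share no match in these windows. Pdgfa was searched too but is not printed. The window at its start site 1 held no match, and that at start site 2 held the hypoxia core alone. No promoter sequence was available for Mmp9. The searches describe letters only. The motifs were chosen with the results known, the cyclic AMP response element after the sequences were seen.

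The genes around these 7 in their pathways were counted from short lists. Of 6 other repair ligands on the panel, 3 were lower and 3 higher relative to Gapdh. Tgfb1, which encodes a growth factor that drives matrix deposition, was lowest (75.5 ± 9.68 with BMS-202 and 1002 ± 68.3 with UV, SD, n = 3 each). Csf3, the granulocyte colony-stimulating factor gene, was highest (71.2 ± 11.9 with BMS-202 and 24.1 ± 3.56 with UV). Csf2 and Il11 read 20 in each UV sample, where no lower value is possible, and passed the filter through the UV plus BMS-202 samples alone. Their means there were 56.1 and 51.2, at least 2.80-fold and 2.56-fold higher. In scaled units the negative control limit was 38.4 to 45.3 with BMS-202 and 23.0 to 26.6 with UV. Csf2 and Il11 thus lay near background with BMS-202, and Csf3 did so with UV. Csf1 fell relative to Gapdh where these weak signals of the other colony-stimulating factor genes read higher. Of the 6 ligands, Tgfb1, Csf2, Csf3 and Il11 kept their direction under all 6 scalings, although a raised floor leaves genes near it almost unmoved. Csf3 was at only 0.087 on the log2 scale with quantile normalization.

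Of 16 genes listed in or beside signalling from receptors through ERK, among them the phospholipase genes Pla2g4a and Plcb1, 12 were lower and 4 higher. Their median log2 difference was -1.97, beside -0.56 for all tested genes. They ran from the adaptor gene Shc1 (-2.88) to the transcription factor gene Creb1 (2.11). All 7 genes of cytoskeleton and migration were lower (median -2.19), from the actin-severing factor gene Cfl1 (-3.43) to the kinase gene Rock2 (-0.47). Of 8 known inducers of metalloproteinase genes, among them interleukin 1, Fos, Jun and NF-kB genes, 7 were lower and Tnf was higher (0.75), with a median of -1.63. These directions hold relative to Gapdh, where 55% of tested genes were called lower and 38.3% higher. Many of these genes have a strong UV signal, and the lists were not matched for it. The neighbours of Csf1 and of Hif1a, at UV means of 342 to 561 and of 876 to 9585, had medians of -1.71 and -2.52. A list median below -0.56 therefore does not by itself set these genes apart. With the 6 housekeeping genes, 6 of the 16 ERK genes, 3 of the 7 migration genes and 2 of the 8 inducers (Jun and Nfkb1, both at -0.30) stayed negative, and the list medians turned to 0.28, 0.07 and 0.63, beside 1.35 for all tested genes. One of those ERK genes, Plcb1 (-0.05), was at the floor in every UV plus BMS-202 sample. Creb1 had a mean of 22.0 with UV, under the negative control limit there (23.0 to 26.6).

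Known targets of HIF-1 did not move together. Besides Flt1, the panel holds Nos2, Cxcr4 and the glycolytic genes Pgk1 and Gapdh, both used as housekeeping genes. Nos2, the inducible nitric oxide synthase gene, rose (128 ± 20.02 with BMS-202 and 21.8 ± 3.07 with UV, SD, n = 3 each, with 2 UV samples at the floor). It was higher under all 6 scalings, but with UV values at or near the floor it had little room to turn. Its direction under the other scalings therefore adds little. The chemokine receptor gene Cxcr4 fell (162 ± 21.7 with BMS-202 and 219 ± 10.4 with UV), with a log2 difference of -0.44 (limma adjusted p = 0.00193) that turned to 1.81 with the 6 housekeeping genes. Pgk1 was 7.74-fold lower. Gapdh is fixed by the scaling, and per spike-in count its level with BMS-202 was 0.767 of that with UV.

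Markers of cells that make or answer these factors moved unevenly relative to Gapdh. Neutrophils store the Mmp9 protease. Of 8 neutrophil markers looked for, 3 were on the panel, and their summed level was 406 to 433 with BMS-202 and 1885 to 1979 with UV. Most of the UV sum came from the leukocyte integrin gene Itgb2 (mean 1804 with UV and 221 with BMS-202), so the sum mainly follows that gene. Itgb2 fell (log2 difference -3.03) while Cxcr1 read 20 in each UV sample and was higher by at least 3.92-fold. Cxcr2 read 124 ± 19.8 with BMS-202 and 114 ± 13.6 with UV (SD, n = 3 each, limma adjusted p = 0.436). Of 10 markers of macrophages, which depend on Csf1, 6 were on the panel, with a summed level of 890 to 945 with BMS-202 and 1404 to 1461 with UV. Mrc1 (-2.44) and Cd163 (-1.02) fell, Chi3l3 (3.36) and Cd86 (0.69) rose, and Arg1 and Tlr4 did not pass (0.22 and -0.13). Of 7 endothelial markers Flt1 alone was on the panel. Of 7 T cell markers 5 were on it, with a summed level of 369.9 to 383 with BMS-202 and 136 to 161 with UV, and all 5 were higher, 3 of them from the floor in every UV sample. Most of these signals were weak. Ccr4, Fasl, Cd40lg and Ltb had means of 52.4, 56.6, 65.2 and 73.1 with BMS-202, beside a negative control limit of 38.4 to 45.3. Ltb read 23.3 with UV, where that limit was 23.0 to 26.6. Cd4 alone was stronger (129 with BMS-202 and 64.3 with UV). With the 6 housekeeping genes, 5 of the 6 macrophage markers had a positive difference (median 2.19), Cd163 (1.22) among them, and Mrc1 was at -0.18. Of the 3 neutrophil markers 2 were then positive (median 1.91), with Itgb2 at -0.77, and all 5 T cell markers stayed positive. However, Cxcr1 and 3 of these T cell markers (Ccr4, Cd40lg and Fasl) could not turn negative there. The raised floor takes in all their UV values, so their sign under this scaling is no separate result. The same limit nearly holds for Ltb, at 23.3 with UV. None of the mast cell, adipocyte or muscle markers looked for was on the panel. The part of these cell types in the differences of Mmp9, Csf1 and Flt1 was not tested.

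The tested genes whose profile over the 6 samples was nearest to each repair gene were found by the distance of centred log2 values. Areg was nearest to Csf1 (distance 0.114) and to Stat2, an interferon signalling gene (0.126), and Csf1 was nearest to Stat2 (0.0712) and Ifi27l2a (0.1003). Pdgfa was nearest to the stress kinase gene Mapkapk2 (0.0707), whose log2 difference was -2.38, and to the glucocorticoid receptor gene Nr3c1 (0.173). Mmp3 was nearest to Map3k7 (0.109) and Tollip (0.134), and Flt1 to Prkcb (0.197) and Limk1 (0.307). Hif1a was nearest to the complement gene C3 (0.155) and to Ly96 (0.183), which was at the floor in all UV plus BMS-202 samples. Mmp9 had no gene as near, with Stat3 at 0.332 and the chemokine gene Ccl7 at 0.381. With 2 groups of 3 samples, these distances mostly follow the size of the group difference.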

How the data were processed

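RNA of 6 skin samples (3 UV plus BMS-202, 3 UV) was measured with the nCounter Mouse Inflammation V2 panel after column extraction, per the labels. The authors deposited 1 table of gene values, a scaled signal. Its scaling was read from the values: Gapdh is constant, every sample has 1 step of which 100% of its gene values over 20 are whole multiples (tolerance 0.006, plus 1e-06 of the value), and no gene value is under 20. Control rows are unscaled counts. Software, genome build and background handling: not given in the sources used here. Dividing by the step gave counts, used for depth and background only, and intervals of such counts cover counting error only.

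Groups came from the labels' treatment field. The test was limma 3.58.1 in R 4.3.3, with eBayes and its trend option, on log2(value + 1). It ran over the 240 endogenous genes with 3 or more samples above 20, with Benjamini-Hochberg adjustment over all of them. It was checked on simulated data: 248 genes of equal noise, 60 of them changed 2-fold, as many up as down. The simulation had no genes at the floor and no gap in depth between the groups, so it does not cover these. The pseudocount of 1 understates changes of low genes. Folds are ratios of group means. Rescaled tables kept those 240 genes and took 1 floor, the highest rescaled 20. Ratios of gene pairs used no pseudocount and an exact permutation test. Named genes were the 7 repair genes, the housekeeping genes, the ends of each list and the 2 nearest profiles of each repair gene; others, such as the neighbours of Mmp9 and Hif1a and the genes given under other scalings, were chosen after their values were seen. The genes and lists were chosen with earlier results of these data known. Same-numbered samples of the groups correlated by -0.04 to 0.02 (181 genes), so the numbers were not taken as pairs. RefSeq (GRCm38.p6) matched 247 symbols directly, 6 as synonyms, and 6 of the 7 repair genes in its promoter table.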

Additional observations from a re-analysis of the deposited data

How the results depend on the processing

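Scaling decided most directions. With the 6 housekeeping genes, 184 panel genes were called higher and 34 lower, against 92 and 132 as deposited. Of the 7 repair genes 4 were then higher and 3 lower: Areg 0.85, Csf1 0.87, Flt1 1.46 and Mmp3 0.33 on the log2 scale had turned. With the 5 housekeeping genes without Gapdh, 202 panel genes were higher and 15 lower, and 5 repair genes were higher and 1 lower: Areg 1.30, Pdgfa 0.34, Csf1 1.32, Flt1 1.89 and Mmp3 0.78 had turned, and Mmp9 (-0.34) no longer passed. With quantile normalization 1 repair gene was higher and 4 lower: Areg (0.50), Csf1 (0.15, adjusted p = 0.151) and Mmp3 (0.030, adjusted p = 0.507) had turned, Csf1 and Mmp3 without passing. The cause was not tested, beyond the shift of the panel's median that each scaling brings. With the 20 nearest genes Pdgfa lay 0.056 above its neighbours' median. Spike-in and panel-median scaling, background subtraction (added after the data were seen), the filters, pseudocount, limma settings, unadjusted p and leaving out any 1 sample left all 7 repair genes lower. Subtracting the negative control mean plus 2 SD moved Mmp9 to -4.13 and Flt1 to -1.47. Ratios of repair genes also moved with settings that are not 1 factor per sample (added after the data were seen), and some turned. With quantile normalization the changes were -1.43 for Flt1 over Areg, -1.08 over Csf1, -0.96 over Mmp3 and -0.17 over Pdgfa, -0.35 for Csf1 over Areg and -1.79 for Mmp9 over Hif1a. With the negative control mean subtracted, and with that mean plus 2 SD, they were -0.0091 and -0.049 for Csf1 over Areg and -0.18 and -0.80 for Mmp9 over Hif1a. The cause was not tested. These settings left 18 to 19 pairs without overlap. The replicate block left all 7 lower too, with 90 panel genes higher and 132 lower. Leaving out samples 1 at a time gave 87 to 94 higher and 132 to 134 lower panel genes, and 19 to 20 pairs of repair genes without overlap. The planned count model was not run, because values under 20 are cut off. Among the repair genes, low counts limit Mmp9 and Flt1 most. Both housekeeping scalings also rest in part on Gusb and Hprt, which had 48 to 55 and 51 to 52 counts with BMS-202.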
